A study of Mus musculus with 39 samples.

Results

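The comparison describes what the α-globin locus contacts in mouse erythroblasts that lack 2 enhancers, R1 and R2, set against wild-type erythroblasts. Its members were chosen by genotype and time as the labels give them, and comprise 6 of the 39 samples of the series, namely 3 biological replicates with R1 and R2 deleted (DKO) and 3 wild-type replicates (WT). Both groups carry the strain label C57Bl6, whereas the study's methods state that its mice, mutant and wild-type alike, were of mixed background. They are MFL cells, erythroid cells grown ex vivo from the disaggregated livers of foetal mice, depleted of Ter119-positive cells, sorted on CD44 and size, and harvested after 30 h in differentiation medium with BrdU present towards the end. The study describes the deletion as homozygous in the mouse. The exact ends of the deleted stretches are not given in the sources used here, and how many animals each culture pooled is not given either. No RNA was measured in these samples, so the labelled cell type could not be checked against marker genes.

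The α-globin genes of the mouse, Hba-a1 and Hba-a2, are switched on during red cell maturation by a row of enhancers that lie upstream of them inside the introns of a housekeeping gene, Nprl3. R1 and R2 are the strongest of these elements, and both are bound by erythroid factors of the GATA family. Enhancers and promoters meet within a stretch of chromatin that folds upon itself, and sites bound by CTCF, a zinc-finger protein that halts cohesin-driven loops, mark the edges of that stretch. NG Capture-C measures such contacts by cutting cross-linked chromatin with DpnII, ligating what lies close together, and sequencing the fragments joined to a captured viewpoint.

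The deleted elements and the CTCF viewpoints are shown because every result below is read from or across them. Coordinates and bases are from the mm9 genome, plus strand. R1 is the fragment chr11:32145277-32146568 and R2 the fragment chr11:32151060-32151883, both in introns of Nprl3. The stretch of each that holds most matches to the GATA-factor words AGATAA or TGATAA is printed, with matches on either strand in capitals. Those of R1 (chr11:32145736-32145885) and R2 (chr11:32151060-32151209) are:
R1: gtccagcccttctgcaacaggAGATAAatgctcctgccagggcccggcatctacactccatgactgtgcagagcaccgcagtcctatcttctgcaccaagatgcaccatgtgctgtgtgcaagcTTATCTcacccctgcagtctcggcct
R2: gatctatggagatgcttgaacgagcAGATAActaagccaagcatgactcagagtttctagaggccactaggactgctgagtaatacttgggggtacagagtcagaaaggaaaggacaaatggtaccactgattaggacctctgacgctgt
The whole R1 fragment held 3 matches and the whole R2 fragment 1, none overlapping another. Of stretches of chromosome 11 as long as R1, 75.9% held at least 1 match and 23.0% held as many, and of stretches as long as R2, 60.9% held at least 1, so the words are common at these lengths.

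The CTCF viewpoints lie on either side of the genes. HS39.5, the upstream site (chr11:32137176-32137426), overlaps an exon of Nprl3, and its fragment held no match to the CTCF core words AGGGGGC or AGGTGGC or AGGCGGC on either strand. CTCF +44 (chr11:32220918-32221720) and CTCF +48 (chr11:32224323-32227298) are intergenic, downstream of the genes. Their matches, in capitals, lie on the minus strand at +44 (chr11:32221319-32221418) and on the plus strand at +48 (chr11:32224729-32224828):
CTCF +44: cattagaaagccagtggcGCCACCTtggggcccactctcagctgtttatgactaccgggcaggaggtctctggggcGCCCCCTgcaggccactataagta
CTCF +48: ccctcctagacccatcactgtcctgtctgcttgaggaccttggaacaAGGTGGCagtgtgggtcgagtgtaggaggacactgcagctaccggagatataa
The +44 fragment held 2 matches and the +48 fragment 1, and 3.06% and 51.7% of chromosome 11 stretches of the same lengths held as many. No overlap between matches was found.

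Contacts were read separately from 5 viewpoints at the α-globin locus (the Hba-1 and Hba-2 promoters and the CTCF sites HS39.5, CTCF +44 and CTCF +48) and from 5 on other chromosomes (Hbb-b1, Hbb-b2, HS60 and HS90 on chromosome 7, Slc25A37 on chromosome 14), which served as controls. Values are percentages of cis interactions, that is, of the reads that join a viewpoint to its own chromosome, after R1, R2 and all fragments within 1 kb of a viewpoint were left out. The α-globin viewpoints had 23333 to 60997 reporter reads in the DKO samples and 25517 to 67343 in the WT samples. The controls ranged from 2264 to 53447 and from 4884 to 62364. A count of 3 reads, the limit that a count of 0 allows, was worth 6.48 to 19.0 per 100000 cis interactions at the α-globin viewpoints and up to 233 at Hbb-b1, counting error only.

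WT replicate 1 stood apart from the other samples. It had the lowest share of cis reads at all 10 viewpoints, for example 61.7% from Hba-1 where the other WT samples had 68.4% and 73.1%, so differences whose size moves by over 1.5 times without it are also given without it. The share of cis interactions falling within 500 kb of the viewpoint was also lower in DKO at all 10 viewpoints. The difference in mean log2 share, DKO minus WT, was −0.27 from Hba-1, −0.26 from Hba-2, −0.16 from HS39.5, −0.18 from CTCF +44 and −0.16 from CTCF +48, with no overlap between the groups, and −0.08 to −0.14 at the controls, where the groups overlapped. Within each replicate number the DKO sample lay below the WT sample at all 10 viewpoints, and replicate 1 was the lowest of both groups at all 10. Shares are therefore also given out of interactions within 500 kb where that scaling changes the picture, and the part of this wider shift in each result was not tested.

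Each comparison of 3 with 3 samples has 20 arrangements, so the two-sided exact permutation test cannot give a p below 0.1, and no single share could pass 0.05. Of 133 comparisons over intervals and gene bodies, 91 reached that smallest p, and the smallest Benjamini-Hochberg adjusted p was 0.146. Of 120 such comparisons at the α-globin viewpoints, 73.3% had groups that did not overlap, against 23.1% of 13 at the controls. Many of the intervals and gene bodies hold or overlap one another and are shares of one total, so the 120 are not separate comparisons. The controls had fewer and other features. Separated groups of 3 and 3 carry that smallest p of 0.1, so some arise with no difference between groups. Over 2 kb bins of the viewpoints' own chromosomes the same was true of 27% and 9.12%. These rates are not at like depth, since 1641 of the 4518 control bins came from Hbb-b1, the viewpoint with the fewest reads. Below, higher and lower describe the samples' values, and overlap or its absence is stated. Log2 differences are differences in mean log2 share, DKO minus WT.

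The deleted fragments were read first, as the check of the labels. From Hba-1 the R2 fragment gave 0, 0 and 2 reads in the DKO samples and 236, 209 and 237 in the WT samples. Summed over the 5 α-globin viewpoints it gave 6 reads in DKO and 1543 in WT, so R2 was all but absent from every library labelled DKO. The fragment next to it on the upstream side (chr11:32150623-32151061) was as empty, with 9 reads in DKO and 1553 in WT. From HS39.5 it gave 0, 0 and 0 reads against 48, 49 and 43.

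The R1 fragment was reduced but not empty. From Hba-1 it gave 40, 20 and 21 reads in DKO against 189, 149 and 185 in WT, and over the 5 viewpoints 422 against 1443. Per cis interaction this left 19.9% of the WT value from Hba-1 and 74.2% from HS39.5, the lowest and the highest of the 5. The fragment upstream of R1 kept 20.7% to 56.0% of its WT value. The R1 and R2 fragments were left out of everything that follows. The fragments that touch them were kept, and the main results were repeated without these.

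**Figure D1:**
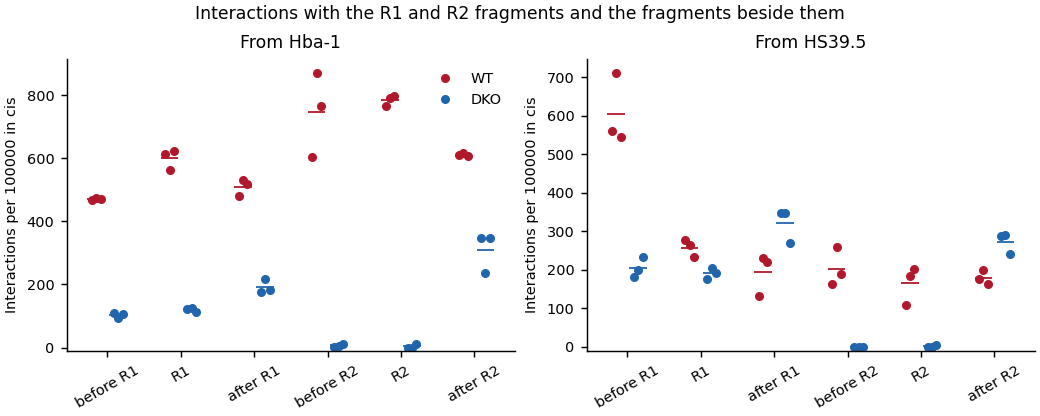
Reads per 100000 cis interactions at the R1 and R2 fragments and those directly before and after them, for each DKO and WT sample, from Hba-1 and from HS39.5. Points are samples and short lines are group means. The R2 fragment and the one beside it upstream sit at or near 0 in all DKO samples, while the R1 fragment keeps 19.9% of its WT value from Hba-1 and 74.2% from HS39.5.

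The promoters of the α-globin genes gave a smaller share of their contacts to the domain around them in DKO. The domain here is the interval of 63.736 kb on chromosome 11 that the study's COMP probe covers, from just before HS39.5 into Hbq1a. From Hba-1 it took 35.2%, 38.3% and 37.4% of cis interactions in the DKO samples and 52.9%, 56.0% and 57.8% in the WT samples. From Hba-2 it took 32.2%, 35.2% and 34.8% against 49.3%, 53.3% and 54.2%. Every DKO value lay below every WT value at both promoters.

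The mean domain share was 36.9% ± 1.61 in DKO and 55.6% ± 2.48 in WT from Hba-1 (SD, n = 3 each), a log2 difference of −0.59 (two-sided exact permutation p = 0.1). From Hba-2 it was 34.1% ± 1.61 against 52.3% ± 2.59, a log2 difference of −0.62 (exact p = 0.1). Out of interactions within 500 kb the differences were smaller, −0.32 and −0.36. Without WT replicate 1 they were −0.62 and −0.66, and without the fragments touching R1 and R2 they were −0.58 and −0.60. Another 3 WT libraries of the series, captured with another panel at 30 h and set beside these with no test, had domain shares of 53.2% ± 0.85 from Hba-1 and 51.6% ± 1.23 from Hba-2 (SD, n = 3), above all DKO values.

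The 2 promoters differed little from each other in this. The domain share from Hba-1 over that from Hba-2 was higher in DKO by 0.03 on the log2 scale (exact p = 0.1), with a range of 0.02 to 0.04 when each sample was left out in turn.

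**Figure D2:**
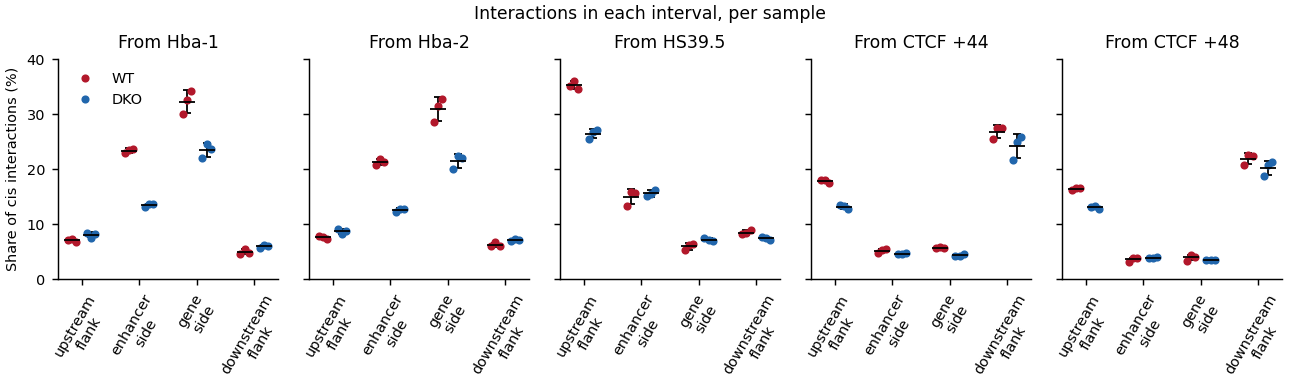
Share of cis interactions, in percent, in the upstream flank, the enhancer side and the gene side of the domain, and the downstream flank, for each sample from each α-globin viewpoint. Points are samples and black marks are the mean and SD of 3. From the promoters both sides of the domain are lower in DKO, while from the 3 CTCF sites the upstream flank is lower, for example 26.4% against 35.3% from HS39.5.

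The part of the domain that holds the enhancers differed more than the part that holds the genes. The enhancer side, the 31.868 kb upstream of the domain's midpoint, took 13.1%, 13.6% and 13.6% from Hba-1 in DKO and 22.9%, 23.5% and 23.7% in WT, a log2 difference of −0.79. The gene side took 22.0%, 24.6% and 23.7% against 30.0%, 32.5% and 34.1%, a log2 difference of −0.46. From Hba-2 the differences were −0.76 and −0.52. They were −0.52 and −0.18 from Hba-1 and −0.50 and −0.26 from Hba-2 out of interactions within 500 kb. Within each sample, the ratio of the enhancer side to the gene side per kb was lower in DKO by 0.34 from Hba-1 and by 0.24 from Hba-2 on the log2 scale, without overlap (exact p = 0.1 for both).

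The site closest to the deletions differed most of the 24 intervals and gene bodies, from both promoters. A FISH probe site of the study, window E, spans the DNA between and around R1 and R2, and its remaining fragments took 2.96%, 3.23% and 3.22% of Hba-1 interactions in DKO against 7.53%, 8.08% and 7.98% in WT. The log2 difference was −1.33 from Hba-1 and −1.27 from Hba-2, and −1.22 and −1.12 without the fragments that touch R1 and R2.

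Among genes of the domain, Nprl3, whose product is a subunit of the GATOR1 complex that restrains mTORC1, and whose introns carry the enhancers, took 15.3% ± 0.17 of Hba-1 interactions in DKO and 24.5% ± 0.28 in WT. Its log2 difference was −0.68, and −0.65 from Hba-2. Hba-x, the embryonic ζ-globin gene, took 2.95% ± 0.14 against 4.06% ± 0.28, a log2 difference of −0.46, and −0.49 from Hba-2. Out of interactions within 500 kb the differences were −0.41 and −0.39 for Nprl3 and −0.19 and −0.23 for Hba-x. Hbq1b, a θ-globin gene, had a log2 difference of −0.27 from Hba-1, which turned to 0.00 out of interactions within 500 kb, and of −0.40 from Hba-2, which became −0.14. Hbq1a, its neighbour at the domain's end, had differences of −0.06 and −0.13 with overlapping groups, which turned to 0.21 and 0.13 out of interactions within 500 kb. The bodies of Hba-a1 and Hba-a2 lie within 1 kb of the viewpoints and gave no value.

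Contacts of the promoters outside the domain were higher in DKO as a share. The upstream flank, the interval of equal length before the domain, took 8.05% ± 0.46 against 7.12% ± 0.32 from Hba-1, and the downstream flank 6.01% ± 0.25 against 5.00% ± 0.48. The log2 differences were 0.18 and 0.27 from Hba-1 and 0.19 and 0.19 from Hba-2, with no overlap. The nearer scaling, out of interactions within 500 kb, gave 0.45 and 0.54 from Hba-1 and 0.45 and 0.45 from Hba-2. The next 500 kb on each side differed more. The share upstream was higher by 0.63 and the share downstream by 0.90 from Hba-1, and by 0.61 and 0.88 from Hba-2. Since shares of one viewpoint sum to a whole, a lower domain share raises the others, and a gain in absolute contacts cannot be told apart from that.

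Most named genes outside the domain were higher as well. Sh3pxd2b, which codes for a podosome adaptor and lies downstream beyond the +48 site, took 1.46%, 1.01% and 1.29% of Hba-1 interactions in DKO and 0.67%, 0.72% and 0.72% in WT. Its log2 difference was 0.81 from Hba-1 and 0.82 from Hba-2. Ubtd2, further downstream, differed by 0.83 and 0.82. In the upstream flank, Snrnp25, which codes for a protein of the minor spliceosome, differed by 0.26 and 0.25, Rhbdf1, which codes for an inactive rhomboid, by 0.23 and 0.31, and Mpg, which codes for a DNA repair glycosylase, by 0.19 and 0.12, all without overlap. Out of interactions within 500 kb these became 0.53 and 0.51 for Snrnp25, 0.50 and 0.57 for Rhbdf1 and 0.46 and 0.39 for Mpg, and without DKO replicate 1 the Mpg difference from Hba-2 was 0.08. Il9r, which codes for the interleukin-9 receptor, had 1.07% ± 0.13 in both groups from Hba-1. Out of interactions within 500 kb its difference was 0.27 from Hba-1 and 0.20 from Hba-2. Of the FISH probe sites, window C, in the downstream flank beyond CTCF +48, differed by 0.64 and 0.71. It lies inside Sh3pxd2b, as does window Cx, so both hold part of the same reads. Window Cx differed by 0.69 from Hba-1 without overlap and by 0.37 from Hba-2 with overlap, on 6 to 26 reads there. Window A, just past the domain's downstream end, differed by 0.15 and 0.10 with overlapping groups. These were 0.10 and 0.06 without WT replicate 1 and 0.42 and 0.37 out of interactions within 500 kb. Over all 24 intervals and gene bodies measured from Hba-1, 13 were higher without overlap, 7 lower without overlap and 4 overlapped. From Hba-2 these counts were 11, 7 and 6.

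**Figure D3:**
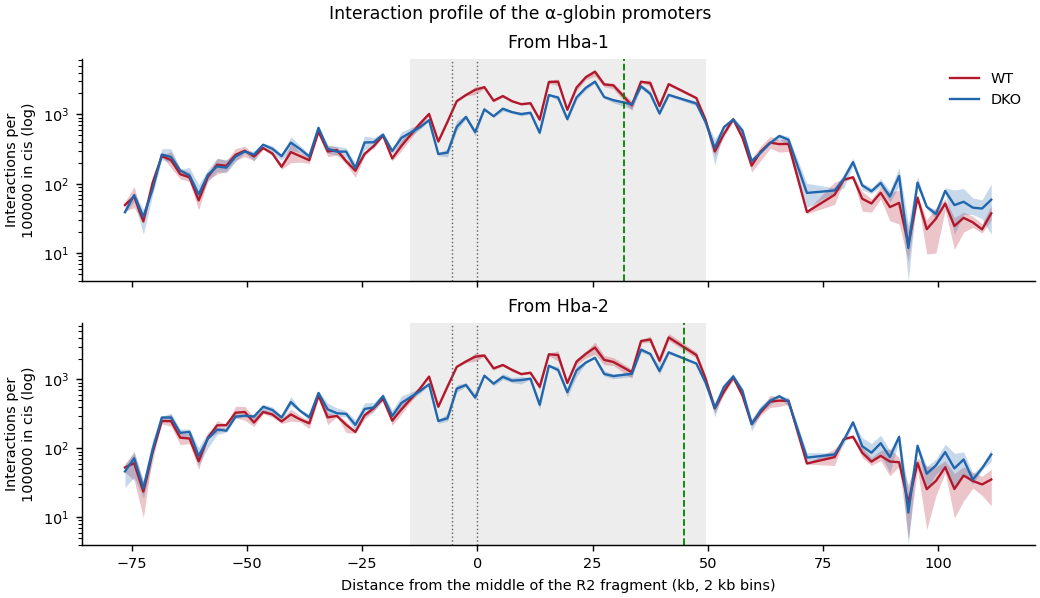
Contacts in 2 kb bins from Hba-1 and Hba-2, in reads per 100000 cis interactions on a log axis, against distance in kb from the middle of the R2 fragment. Lines are group means and bands span the lowest to the highest of the 3 samples. The shaded stretch is the domain, dotted lines mark R1 and R2, and the dashed line marks the viewpoint. The domain shares that the shaded stretch sums to are 36.9% in DKO and 55.6% in WT from Hba-1, and 34.1% and 52.3% from Hba-2.

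The same picture was sought in single 2 kb bins of chromosome 11. With limma on log2(value + 1), the main test, 7 of 512 bins were called from Hba-1 at an adjusted p under 0.05 (1.37% of the bins tested), 6 of them higher in DKO and 1 lower, and 0 or 1 with any 1 of the 6 samples left out. From Hba-2, 0 of 534 bins were called (0% of the bins tested), with 128 at an unadjusted p under 0.05. The bin called as lower holds R2's neighbours (chr11:32150001-32152000) and had 483, 588 and 598 per 100000 in DKO against 1934, 2523 and 2314 in WT, a log2 difference of −2.02 with SE 0.25 (limma adjusted p = 0.0488). It lies across the deletion itself.

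The bins called as higher were far from the genes and rested on few reads. One in Spnb2, a spectrin gene (chr11:30074001-30076000), had 7, 3 and 4 reads in DKO and 1, 1 and 1 in WT. Another in Ubtd2 (chr11:32364001-32366000) had 17, 10 and 13 against 3, 2 and 5, one in Fbxw11, which codes for an F-box protein (chr11:32606001-32608000), had 10, 5 and 5 against 3, 2 and 2, and an intergenic bin (chr11:31596001-31598000) had 15, 7 and 11 against 4, 2 and 4. The limma adjusted p was 0.0312 for the Spnb2 bin and 0.0488 for the other three.

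edgeR's quasi-likelihood test on whole reads recovered from the values, an alternative that weighs each bin by its reads, called many more. With TMM scaling, 38 bins were lower in DKO from Hba-1 (7.42% of the bins tested) and 36 from Hba-2 (6.74%). All 28 bins of the domain were among them from each promoter. With libraries scaled to the viewpoint's cis reads instead, 29 bins were lower from Hba-1 (5.66%) and 26 from Hba-2 (4.87%), and 26 and 24 of them were domain bins. The direction inside the domain held under both scalings. In the flanks it did not: the median of all bins from Hba-1 was 0.18 under TMM and 0.65 under cis scaling, and the bins called in the upstream flank were 2 lower under the first and 1 higher under the second. A self-test on simulated counts with the depth of the Hba-1 bins recovered 0% of 2-fold changes by limma and 33.3% by edgeR. Its changed bins were placed at random, as many raised as lowered, and its replicate spread was set, not taken from these data. The recovery rates therefore need not hold for these data.

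**Figure D4:**
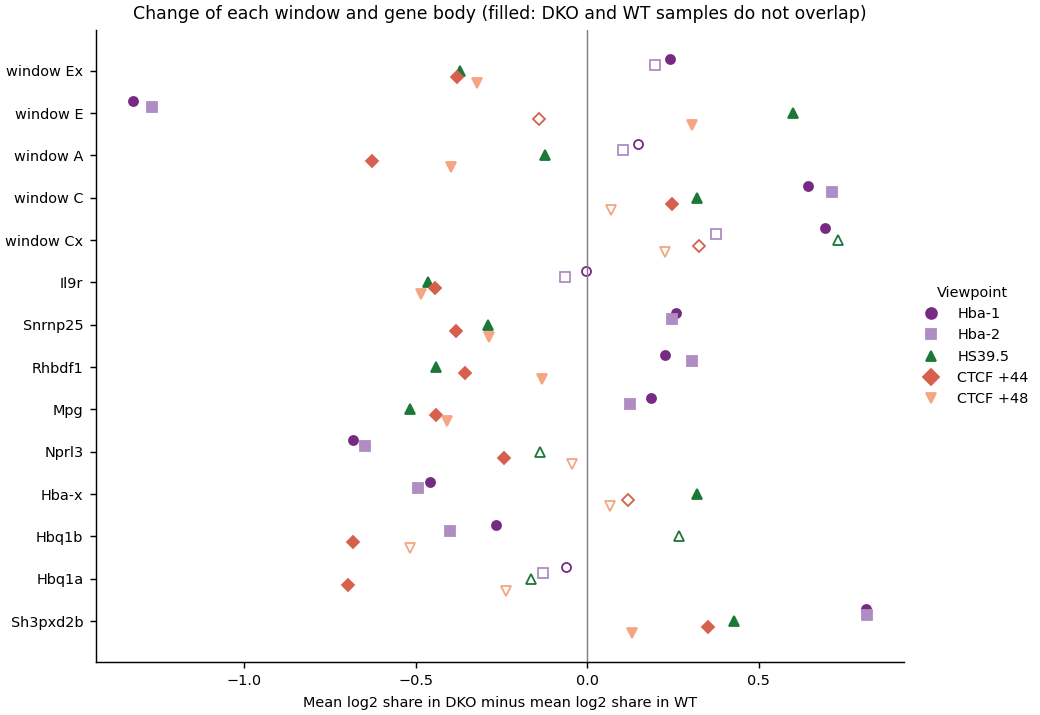
Log2 difference in share of cis interactions, DKO minus WT, for FISH probe windows and gene bodies from each α-globin viewpoint. Points are differences of mean log2 shares over 3 and 3 samples, filled where the groups do not overlap. From the promoters the values are lowest at window E and highest, of the features plotted, at Sh3pxd2b, and from the CTCF sites the genes upstream of the domain lie below 0 on this scale, of which Rhbdf1 from CTCF +48 turns to 0.02 out of interactions within 500 kb.

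From HS39.5, at the upstream end of the domain, the difference lay on the other side. The upstream flank took 25.5%, 26.8% and 27.1% of its interactions in DKO and 35.2%, 36.0% and 34.6% in WT. The means were 26.4% ± 0.86 and 35.3% ± 0.71 (SD, n = 3 each), a log2 difference of −0.42 (exact p = 0.1). It was −0.26 out of interactions within 500 kb and −0.42 without WT replicate 1. The other 3 WT libraries at 30 h gave 32.8%, 32.5% and 30.9% (32.0% ± 1.03). These lie above all DKO values but also below all WT values of this comparison, so the WT sets differed from each other here.

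The domain itself was not lower from this site. It took 22.6%, 22.6% and 23.1% in DKO and 18.7%, 22.1% and 22.1% in WT, so all DKO values were above the WT values, 2 of which came close to them. The log2 difference was 0.12 (exact p = 0.1) and 0.04 without WT replicate 1. The other 3 WT libraries gave 19.99% ± 0.51. Relative to its 2 flanks per kb, the domain was higher in DKO by 0.49 on the log2 scale without overlap (exact p = 0.1). The downstream flank took 7.66%, 7.45% and 7.09% against 8.14%, 8.42% and 8.89%, a log2 difference of −0.20 that was −0.04 out of interactions within 500 kb. The other 3 WT libraries gave 7.53% ± 0.27 there, which overlaps the DKO values and lies below the WT values of this comparison.

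Within the domain, HS39.5 gave the enhancer region a higher share in DKO. Window E took 3.23%, 3.34% and 3.32% in DKO against 1.89%, 2.37% and 2.29% in WT, a log2 difference of 0.60, and 0.75 without the fragments that touch R1 and R2. This is the opposite direction to the promoters, over the same fragments and in the same libraries. The gene side took 7.46%, 7.18% and 6.93% against 5.31%, 6.21% and 6.49%, a log2 difference of 0.26, and 0.42 out of interactions within 500 kb. Hba-x differed by 0.32 without overlap. The enhancer side as a whole, with 15.6% ± 0.57 against 14.97% ± 1.38, overlapped (exact p = 0.7). Its log2 difference was 0.06, and −0.02 without WT replicate 1.

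The genes upstream of the site were lower. Mpg took 5.40% ± 0.08 against 7.76% ± 0.67, a log2 difference of −0.52, and Rhbdf1 6.78% ± 0.23 against 9.22% ± 0.37, a difference of −0.44. Il9r and Snrnp25 differed by −0.47 and −0.29, and window Ex, the probe site just before the domain, by −0.37, all without overlap. Out of interactions within 500 kb Rhbdf1, Il9r, Snrnp25 and window Ex differed by −0.29, −0.31, −0.13 and −0.22. Mpg and Nprl3 overlap in their coordinates, so part of the Mpg value also counts for Nprl3. Sh3pxd2b, which starts inside the downstream flank and runs past its end, was higher by 0.43. Of the 24 intervals and gene bodies, 7 were higher and 10 lower without overlap, and 7 overlapped.

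In bins, limma called 0 of 529 from HS39.5 (0% of the bins tested), with 79 at an unadjusted p under 0.05. edgeR with TMM called 42 as lower (7.94%) and 11 as higher (2.08%), and with cis scaling 30 as lower (5.67%) and 15 as higher (2.84%). In the 31 bins of the upstream flank, 23 were called lower with TMM and 19 with cis scaling, and none higher under either. In the 28 bins of the domain, 7 were called higher and 4 lower with TMM, and 11 higher and 1 lower with cis scaling. A bin in an intron of Nprl3 next to R1 (chr11:32146001-32148000), chosen after its values were seen, had 916, 1008 and 1036 per 100000 in DKO against 463, 564 and 554 in WT (edgeR with TMM, log2 difference 0.78, adjusted p = 0.000426, limma adjusted p = 0.31). The bin before it (chr11:32144001-32146000) had 568, 427 and 476 against 902, 1286 and 949. Its value holds the partly emptied fragment beside R1 but not R1, which was left out.

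From CTCF +44, downstream of the genes, the upstream flank was lower too. It lies across the domain from this viewpoint, whereas it adjoins HS39.5. The upstream flank took 13.6%, 13.4% and 12.7% in DKO and 18.1%, 18.0% and 17.6% in WT. The means were 13.2% ± 0.46 and 17.9% ± 0.27 (SD, n = 3 each), a log2 difference of −0.44 (exact p = 0.1), and −0.25 out of interactions within 500 kb. The domain took 8.86%, 8.84% and 9.21% against 10.52%, 11.04% and 11.22%, a log2 difference of −0.28 (exact p = 0.1). That difference was −0.10 out of interactions within 500 kb and −0.08 with 5 kb left out around the viewpoints. The downstream flank overlapped, with 24.1% ± 2.19 against 26.8% ± 1.18 (exact p = 0.2).

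Inside the domain the gene side differed more than the enhancer side. The gene side differed by −0.40 and the enhancer side by −0.17, which became −0.22 and 0.02 out of interactions within 500 kb. Hbq1b took 0.61% ± 0.01 against 0.98% ± 0.05, a log2 difference of −0.68, and Hbq1a 0.74% ± 0.04 against 1.21% ± 0.06, a difference of −0.70. Window A, between the domain and this viewpoint, took 3.41% ± 0.07 against 5.28% ± 0.16, a difference of −0.63. These 3 had no overlap. Hba-x overlapped, with a difference of 0.12, and 0.03 without WT replicate 1. Of the genes upstream of the domain, Il9r and Mpg both differed by −0.44, Snrnp25 by −0.38 and Rhbdf1 by −0.36, while Sh3pxd2b, on the viewpoint's other side, differed by 0.35. These 5 became −0.26, −0.26, −0.20, −0.17 and 0.54 out of interactions within 500 kb. Of the 24 intervals and gene bodies, 4 were higher and 15 lower without overlap, and 5 overlapped.

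From CTCF +48 the upstream flank was lower as well. It took 13.1%, 13.3% and 12.8% in DKO and 16.2%, 16.6% and 16.6% in WT, a log2 difference of −0.33 (exact p = 0.1) and −0.18 out of interactions within 500 kb. The domain did not differ beyond the spread of the samples, with 7.38% ± 0.10 against 7.57% ± 0.84, a log2 difference of −0.03 (exact p = 0.9). Its sign turned under other scalings, to 0.12 out of interactions within 500 kb. Inside it, the enhancer side was higher by 0.12 and window E by 0.30 without overlap, whereas the gene side was lower by 0.19 with overlap. Without WT replicate 1 these differences were 0.04, 0.17 and −0.29, and out of interactions within 500 kb 0.28, 0.46 and −0.03. Window A and Il9r, on either side of the domain, were lower by 0.40 and 0.49 without overlap, window A by 0.24 out of interactions within 500 kb, and Rhbdf1 by 0.13, a sign that turned out of interactions within 500 kb. Of the 24 intervals and gene bodies, 4 were higher and 10 lower without overlap, and 10 overlapped.

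**Figure D5:**
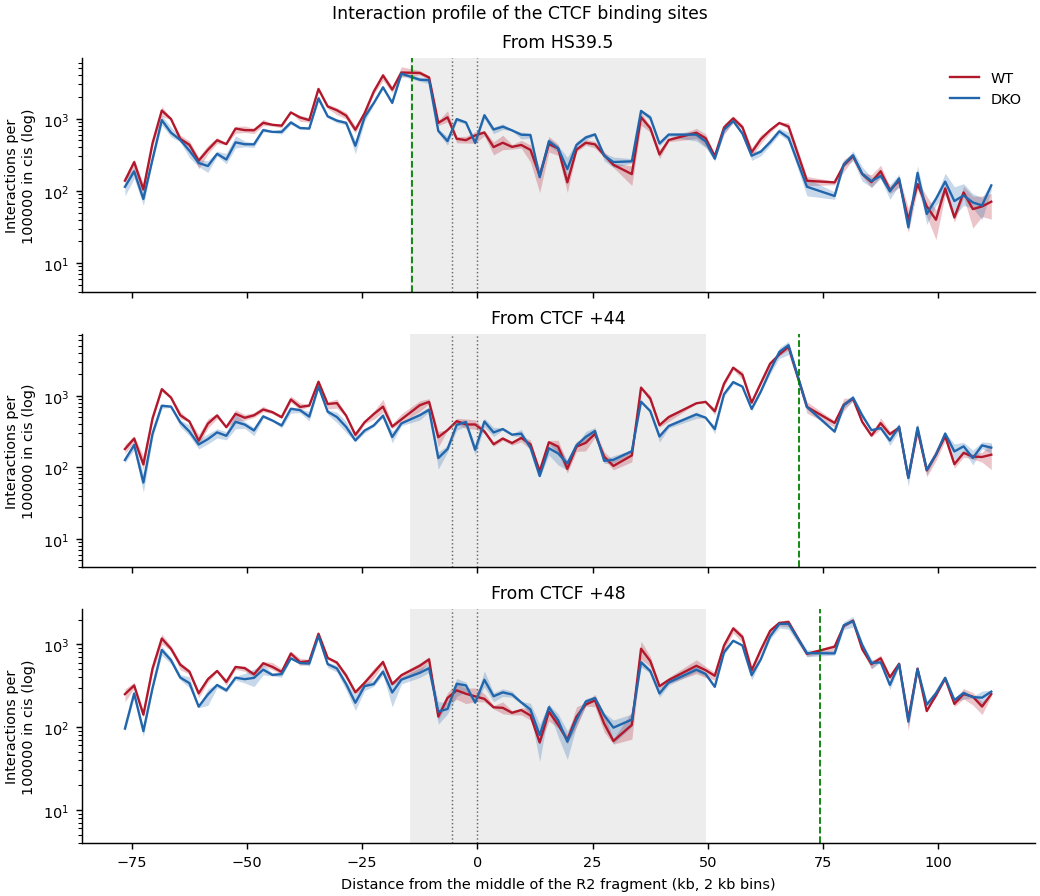
Contacts in 2 kb bins from HS39.5, CTCF +44 and CTCF +48, in reads per 100000 cis interactions on a log axis, against distance in kb from the middle of the R2 fragment. Lines are group means and bands span the lowest to the highest of the 3 samples. The shaded stretch is the domain, dotted lines mark R1 and R2, and the dashed line marks the viewpoint. All 3 viewpoints show a lower DKO line over the flank upstream of the domain, where their shares differ by −0.42, −0.44 and −0.33 on the log2 scale.

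limma called 0 of 597 bins from CTCF +44 (0% of the bins tested) and 0 of 643 from CTCF +48 (0%), with 77 at an unadjusted p under 0.05 from each. edgeR with TMM called 50 bins lower (8.38%) and 10 higher (1.68%) from +44, and 31 lower (4.82%) and 10 higher (1.56%) from +48. With cis scaling the counts were 41 lower (6.87%) and 12 higher (2.01%) from +44, and 38 lower (5.91%) and 11 higher (1.71%) from +48. Of the 31 bins of the upstream flank, 23 were called lower from +44 with TMM and 18 with cis scaling, and 11 and 13 from +48, with none higher. An intergenic bin beyond Il9r (chr11:32082001-32084000), named after its values were seen, had 670, 727 and 778 per 100000 from +44 in DKO against 1147, 1323 and 1237 in WT (edgeR with TMM, log2 difference −0.82, adjusted p = 2.59e-07, limma adjusted p = 0.35). A bin at Hbq1b (chr11:32186001-32188000), named in the same way, had 818, 807 and 859 against 1262, 1337 and 1305 (log2 difference −0.70, adjusted p = 1.02e-05 with TMM, limma adjusted p = 0.35).

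Ratios within each sample, which do not depend on how the viewpoint was scaled, put the sites side by side. The upstream flank over the enhancer side per kb was lower in DKO by 0.27 on the log2 scale from CTCF +44 and by 0.45 from CTCF +48, without overlap (exact p = 0.1 for both). The enhancer side over the gene side was higher by 0.23 and 0.31 from these sites, and lower by 0.20 from HS39.5, by 0.34 from Hba-1 and by 0.24 from Hba-2. The enhancer side in these ratios still includes the fragments that touch R1 and R2. Window A over window C, the probe site inside the downstream CTCF sites over the one beyond them, was lower from all 5 viewpoints, by 0.49 from Hba-1 with overlap and by 0.61, 0.44, 0.87 and 0.47 from Hba-2, HS39.5, CTCF +44 and CTCF +48 without overlap.

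The viewpoints on other chromosomes gave the level of difference away from the deletion. limma called 1 of 4518 bins from these 5 viewpoints (0.0221% of the bins tested), with 212 at an unadjusted p under 0.05. edgeR with TMM called 6 (0.133%), all lower. Of these 6, 2 were from Hbb-b1 and 4 from Hbb-b2, all between chr7:110964001 and chr7:111032000. With cis scaling edgeR called 1 bin, from Hbb-b2. Hbb-b1, the viewpoint with the fewest reads, gave 1641 of the bins tested, so these rates are not at like depth with those of the α-globin viewpoints. With 1 sample left out limma called 0 to 81, the most without WT replicate 2, then 61 without DKO replicate 1 and 23 without DKO replicate 3. The bin that limma called, from HS60 (chr7:111432001-111434000), had 0, 0 and 0 reads in DKO and 7, 5 and 9 in WT, and edgeR did not call it (adjusted p = 0.65). From Slc25A37, the promoter of the mitochondrial iron importer mitoferrin, the body of that gene took 19.7%, 21.6% and 21.5% in DKO and 19.6%, 20.5% and 20.2% in WT, which overlapped (exact p = 0.3).

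The β-globin locus was less even, and DKO replicate 1 stood apart there. From HS60 its counts differed from those of DKO replicates 2 and 3 with a chi-square over degrees of freedom of 4.55 and 4.62, against 1.49 between those 2, and from Hbb-b1 45.6% of its interactions lay within 500 kb against 58.7% and 58.0%. The interval that reaches from the adult β-globin genes into their locus control region (chr7:110961967-111009749) took 29.3%, 33.3% and 33.5% of the interactions of the viewpoint labelled Hbb-b2 in DKO and 34.0%, 36.9% and 37.8% in WT, a log2 difference of −0.18 without overlap (exact p = 0.1), and −0.12 without DKO replicate 1. Hbb-bh1, an embryonic β-globin gene, differed by −0.50 from the same viewpoint and by −0.45 without that replicate. Hbb-y, another embryonic gene of the locus, took 0.13%, 0.13% and 0.14% of HS90 interactions in DKO and 0.18%, 0.22% and 0.24% in WT, a log2 difference of −0.66 without overlap (exact p = 0.1), and −0.63 without DKO replicate 1. From Hbb-b1 the interval took 12.8%, 23.8% and 21.5% against 19.8%, 23.7% and 25.7% and overlapped, with a difference of −0.29 that was −0.02 without DKO replicate 1. The labels' Hbb-b1 fragment lies in the gene annotated as Hbb-b2 and the other way round, so both are named here as the labels have them. Hbb-bh1 from HS60 differed by −0.65 with overlapping groups, on 10 to 93 reads per sample, and by −0.22 without DKO replicate 1. On the log2 scale, Hbb-y from HS90 and Hbb-bh1 from HS60 thus differed as much as the domain did from the α-globin promoters. The measures are unlike in size: these gene bodies kept 2.52 and 2.08 kb, with 29 to 105 reads per sample for Hbb-y. The domain kept 52.0 kb, with 6124 to 17153 reads from Hba-1. The β-globin interval, with 42.7 kb kept, differed by −0.18 to −0.29 from the chromosome 7 viewpoints. Without DKO replicate 1 it differed by −0.02 to −0.13. The groups overlapped for Hbb-bh1 from HS60 and not for Hbb-y from HS90, and the difference between loci was not tested.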

How the data were processed

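NG Capture-C libraries of 3 DKO and 3 WT MFL cultures at 30 h were compared. The authors deposited, for each DpnII fragment and viewpoint, reporter reads per 100000 reporter reads of that viewpoint, a reads-per-million (RPM) type of unit. Trim Galore and Bowtie stand in the submitters' processing notes, without versions, and coordinates are mm9. Of the values above 0, 100.0% were whole multiples of 1 read within a tolerance of 0.05 in every sample and viewpoint, so whole reads were recovered. The fragments were checked against a DpnII digest of mm9, and gene names are from GENCODE vM1.

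Each viewpoint was taken alone. R1, R2 and fragments within 1 kb of any viewpoint were left out, and values were rescaled to 100000 cis interactions. Shares of intervals and gene bodies were compared by a two-sided exact permutation test of mean log2 shares over 20 arrangements, with Benjamini-Hochberg adjustment over 133 comparisons. Bins (2 kb, mean not under 10) were tested with limma 3.58.1 (R 4.3.3) on log2(value + 1), a scale that understates the change of low bins, adjusted within each viewpoint at 0.05. Alternatives were edgeR 4.0.16 (quasi-likelihood) and DESeq2 1.42.0 on recovered reads, a pseudocount of 10, no filter, the deposited scaling, 5 kb bins or exclusion, R1 and R2 kept, a replicate block and each sample left out in turn. Scaling edgeR to cis reads, leaving out the fragments beside R1 and R2, the ratios within samples, and intervals and genes without DKO or WT replicate 1 were added after the data were seen.

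The bins to be named were, per viewpoint and direction, the 4 with the smallest adjusted p among those called whose groups did not overlap, plus all listed windows and genes. Intervals and genes were chosen with earlier results of these data known. The scripts were tested on simulated data. Replicates of a group differed from each other by more than sampling noise for most viewpoints (chi-square over degrees of freedom, median 1.53 in DKO and 1.81 in WT, range 0.921 to 4.62), and none was treated as a duplicate. Columns that combine viewpoints were not used.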

Additional observations from a re-analysis of the deposited data

How the results depend on the processing

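Of the shares of the domain and its flanks, the signs from Hba-1, Hba-2 and HS39.5 and those of the upstream flank from CTCF +44 and +48 held under every alternative, and so did that of the domain from +44. The domain share from +48 turned from −0.03 to 0.0073 out of all reporter reads, 0.12 out of interactions within 500 kb and 0.19 with 5 kb left out around viewpoints, and ranged from −0.13 to 0.03 with 1 sample left out. The latter values above 0 were 0.0285 without WT replicate 2 and 0.0047 without WT replicate 3. Out of interactions within 500 kb, the downstream flank turned to 0.032 from +44 and 0.0421 from +48, the enhancer side from +44 to 0.0182, window A from HS39.5 to 0.0334, Rhbdf1 and Ubtd2 from +48 to 0.0229 and 0.088, and Hbq1b from Hba-1 to 0.0048. Others whose groups overlapped turned too. From Hba-1 and Hba-2, Hbq1a turned to 0.2091 and 0.1316 and Il9r to 0.267 and 0.1957. Nprl3 turned to 0.0163 from HS39.5 and 0.1124 from +48. Window E from +44 turned to 0.043, and the part of the downstream flank beyond +48, seen from +48, to 0.1461. The cause of these turns was not tested.

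Counts of bins called from the α-globin viewpoints differed most between limma and the count fits. In place of 7 from Hba-1 there were 14 with a pseudocount of 10, 0 without a filter, with 5 kb left out and with 5 kb bins, 1 without the fragments beside R1 and R2, 40 with edgeR and TMM, 77 with edgeR and cis scaling, 38 with DESeq2 and 0 to 1 with 1 sample left out. In place of 0 from Hba-2 there were 5 with a pseudocount of 10, 20 out of all reporter reads, 2 with R1 and R2 kept, 47, 64 and 34 with the same 3 count fits and 0 to 2 with 1 sample left out. From HS39.5 there was 1 out of all reporter reads and 53, 45 and 44 with the count fits, from +44 60, 53 and 39, and 0 to 3 with 1 sample left out, from +48 41, 49 and 40, and 0 to 1. Of the bins called from Hba-1, 85.7% were higher with limma, 5% with edgeR and TMM, and 62.3% with cis scaling. DESeq2 gave no adjusted p for 417 of 512 bins there. In place of 1 from the controls there were 0 with a pseudocount of 10, without a filter, out of all reporter reads and with DESeq2, 2 with 5 kb left out, 6 with edgeR and TMM and 0 to 81 with 1 sample left out, the most without WT replicate 2, then 61 without DKO replicate 1 and 23 without DKO replicate 3.

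The labels number the replicates 1 to 3 in both groups. Deviations of same-numbered samples from their group means correlated at 0.03, −0.02 and −0.01 over 7333 bins. At HS90, the viewpoint where they were highest, they correlated at 0.22, 0.11 and 0.096. Not every pair exceeded 0.1, so the main tests did not pair the samples by number. Counting noise in bins of few reads brings such correlations towards 0, so low values cannot exclude pairing. In the share of interactions within 500 kb, replicate 1 was lowest in both groups at all 10 viewpoints, a hint from the data that the numbers may share something. With the replicate block, 0 bins were called from each α-globin viewpoint and 0 from the controls.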
